A study of Mus musculus with 24 samples.

Results

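The interferon-induced genes of the mouse liver were followed as a set of 44 genes chosen by name: 27 genes of the type I interferon response, 10 GTPase genes induced by interferon gamma, 4 genes of antigen processing, and Irf1 with the chemokine genes Cxcl9 and Cxcl10. Of these, 43 had an array probe carrying their symbol, and all 43 passed the filter on dim probes, among 23966 genes measured. The missing member is the GTPase gene Tgtp1. The members were chosen with earlier results of these data known, so their counts describe the set.

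Arrays were made from the livers of 24 mice, 1 array per animal. The animals were wild-type C57Bl/6J males on chow, aged 8 weeks, divided into 4 groups of 6. Over the last 24 hours 1 group was fed with tap water to drink, another had 20% glucose added to its water, another had 20% fructose added, and the remaining group was fasted. Tissue was taken at ZT16 in every group, so 16 hours into the light-dark cycle. The labels name no infection, interferon treatment or genetic change in any group.

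Interferons are secreted proteins that warn cells of infection. Type I interferons act through the receptor chains Ifnar1 and Ifnar2 and the kinases Jak1 and Tyk2, and they activate a factor containing Stat2 and Irf9 that binds promoters of antiviral genes. Interferon gamma, made mostly by T and natural killer cells, acts through Ifngr1 and Ifngr2, and it induces Irf1, GTPases that attack intracellular microbes, and the machinery that cuts proteins into peptides for display to T cells. The liver holds hepatocytes, resident macrophages (Kupffer cells) and many natural killer and T cells, and it expresses many of these genes at a basal level without infection.

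Fasting was accompanied by lower levels of most members. Against fed mice on water, 32 of 43 members fell and 2 rose (limma, Benjamini-Hochberg adjusted p under 0.05 over all genes), where 20.9% of all measured genes fell and 21.7% rose (42.6% either way). Against fed mice on glucose water 35 fell and 2 rose, beside 21.9% and 22.6% of all genes (44.6%). Against fed mice on fructose water 27 fell and 2 rose, beside 21.9% and 23.4% (45.3%). The 3 comparisons share the fasted mice and are not independent. The median member differed by -0.69 on the log2 scale against water, -0.71 against glucose and -0.52 against fructose, while the median over all genes lay at 0.02, 0.02 and 0.04. In liver tissue, fewer cells of a type and less RNA per cell cannot be told apart.

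All 4 classes took part, to different extents. Against fed mice on water the median member of the type I response differed by -0.56, with 17 of 27 lower and 2 higher. The interferon gamma GTPases had a median of -0.84, with 8 of 9 lower. The 4 antigen processing genes had a median of -0.59 and all 4 fell. Irf1, Cxcl9 and Cxcl10 all fell, with a median of -1.69. Averaged over its genes and set against the mean of fed mice on water, the GTPase class lay between -1.59 and -0.59 in the 6 fasted mice, the type I class between -0.85 and -0.14, and the antigen processing class between -0.97 and -0.28. The GTPase range lay below every fed mouse, the lowest being a fructose mouse at -0.45. The type I range overlapped the water group (lowest -0.20) and the fructose group (lowest -0.41). The antigen processing range overlapped the fructose group (lowest -0.33). In every fasted mouse the GTPases lay further below the water mean than the type I genes, by 0.30 to 0.74. The same order held in 6 of 6 mice on glucose and 5 of 6 on fructose, with differences from -0.33 to 0.04. Since the members of a class share mice and regulation, the difference between classes was not tested.

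**Figure D1:**
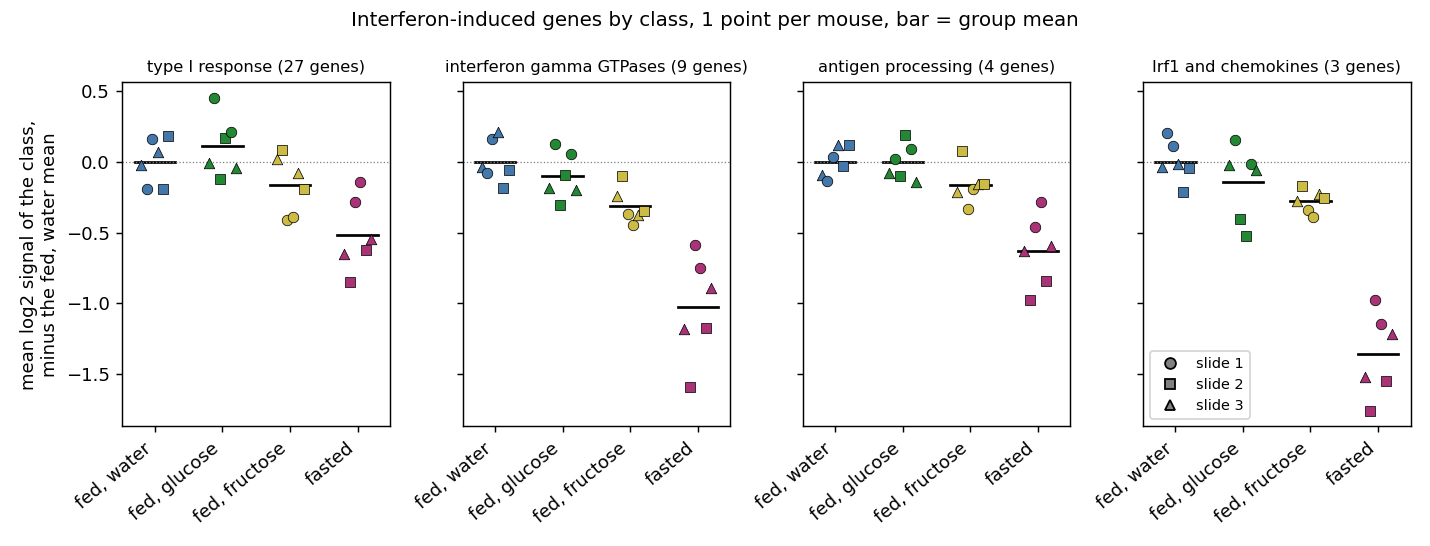
Each point is 1 mouse and gives the mean log2 signal of a class of interferon-induced genes minus the mean of the fed mice on water; the x axis gives the 4 groups, the symbol the slide and the bar the group mean of 6 mice. The fasted group has the lowest group mean in each class, with GTPase values from -1.59 to -0.59. The fasted mice of slide 1 (circles) are the highest fasted mice in each class.

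Many promoters of the set carry a sequence through which interferons are known to act. They are shown as a description of the set, and a link to the change with fasting was not tested. The window of 250 bases before to 50 bases after the gene start (RefSeq, GRCm38.p6) was available for 35 of the 44 members. The core of the interferon-stimulated response element, GAAANNGAAA on either strand (written TTTCNNTTTC on the other), was found in 20 of these 35 windows, 57.1%, against 3.99% of 27025 gene windows. By class it was present in 12 of 20 type I genes, 7 of 8 GTPases, 1 of Irf1, Cxcl9 and Cxcl10, and 0 of 4 antigen processing genes. The gamma-activated sequence TTCNNNGAA, a Stat dimer site that reads the same on both strands, was found in 10 of 35, 28.6%, against 9.55%. The windows below are cut from these promoters, with the matches in capitals. Ifit1, Isg15 and Bst2 stand for type I effectors, and Rsad2 for an effector that was higher in fasted mice. Cxcl10 stands for the chemokines, and Gbp2, Gbp7, Igtp and Irgm2 for the GTPases.
Ifit1 (chr19:34640770-34640828, plus strand): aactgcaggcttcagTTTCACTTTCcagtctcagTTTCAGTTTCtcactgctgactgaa
Isg15 (chr4:156200860-156200911, minus strand): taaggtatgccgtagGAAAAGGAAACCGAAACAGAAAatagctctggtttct
Bst2 (chr8:71537572-71537623, minus strand): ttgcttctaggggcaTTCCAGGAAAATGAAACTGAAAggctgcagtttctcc
Rsad2 (chr12:26456548-26456587, minus strand): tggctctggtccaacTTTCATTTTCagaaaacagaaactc
Cxcl10 (chr5:92349078-92349117, minus strand): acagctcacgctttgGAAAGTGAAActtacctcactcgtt
Gbp2 (chr3:142620589-142620628, plus strand): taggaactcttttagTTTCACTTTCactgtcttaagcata
Gbp7 (chr3:142530215-142530294, plus strand): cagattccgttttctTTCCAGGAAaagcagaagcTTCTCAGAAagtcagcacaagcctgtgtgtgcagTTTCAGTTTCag
Igtp (chr11:58199496-58199546, plus strand): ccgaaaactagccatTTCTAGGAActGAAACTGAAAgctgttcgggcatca
Irgm2 (chr11:58214887-58214937, plus strand): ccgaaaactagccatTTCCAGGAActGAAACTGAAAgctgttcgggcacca

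Igtp and Irgm2, neighbours on chromosome 11, hold a gamma-activated sequence next to the response element in nearly the same window, and in Bst2 and Isg15 the matches overlap. Of 19 measured members with the core, 13 fell and 1 rose against fed mice on water, with a median of -0.62. Of 15 without it in this window, 14 fell and 0 rose, with a median of -0.70. Over all genes 20.9% fell and 21.7% rose. The split also follows class, as 0 of 4 antigen processing genes hold the core. Members without a window are left out, and a link of the core to the change was not tested. A match is a description of letters and not a shown binding site.

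**Figure D2:**
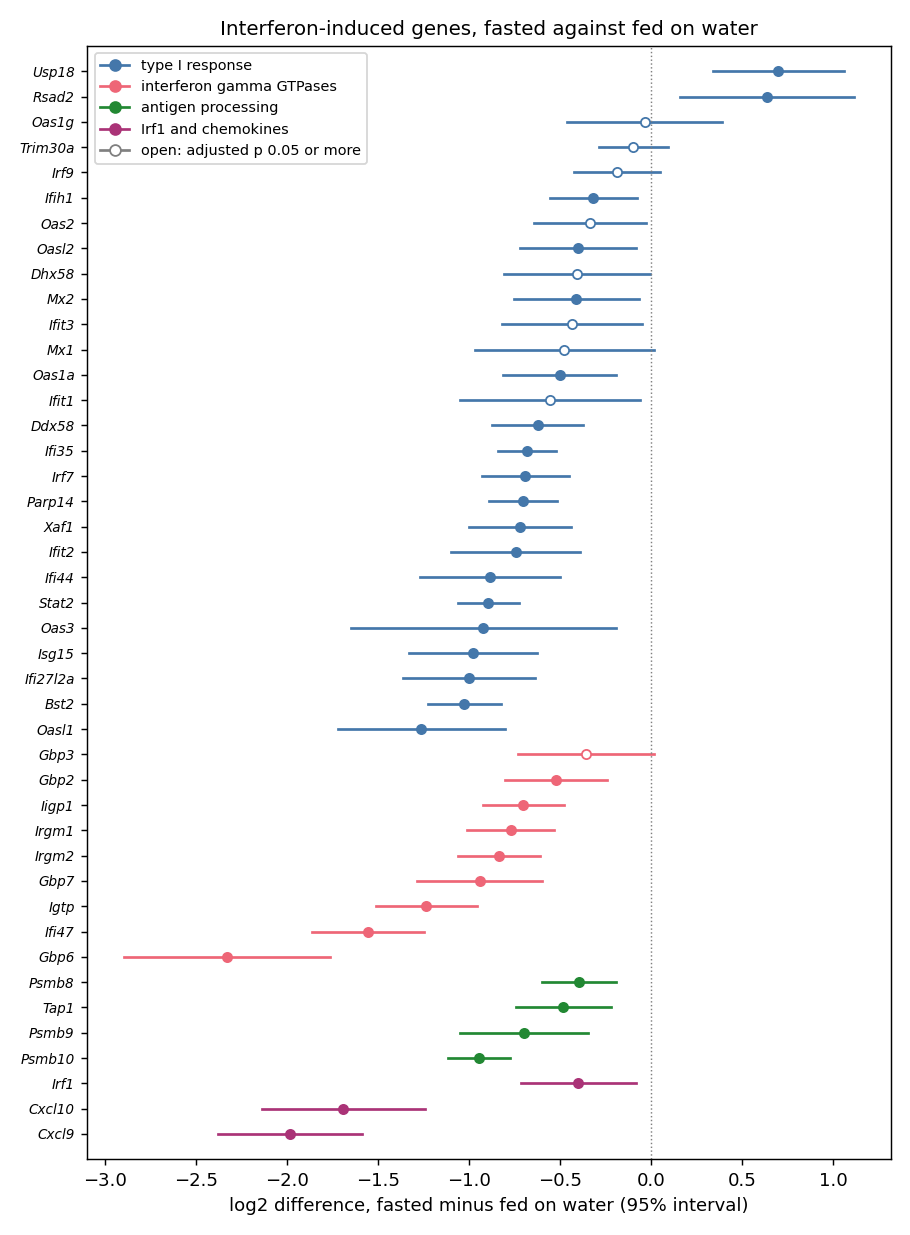
Points give the log2 difference of fasted mice minus fed mice on water for each of the 43 measured members, with its 95% interval from the limma fit, coloured by class and ordered by size within a class; open points did not pass an adjusted p of 0.05. The differences run from -2.33 for Gbp6 to 0.70 for Usp18, and Usp18 and Rsad2 are the filled points above 0.

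Among the type I effectors, 13 of 21 fell against fed mice on water and 2 rose. Oasl1, an inhibitor of Irf7 translation related to the oligoadenylate synthetases, lay between 1.22 and 2.95 in the fasted mice (median 2.38) and between 3.25 and 3.74 in fed mice on water (median 3.50), as log2 signal over the array's 75th percentile. It spanned 2.94 to 3.86 with glucose and 2.26 to 3.20 with fructose, so the fasted mice lay below all mice on water but overlapped both sugar groups. It was 2.40-fold lower than on water (log2 -1.26 ± 0.22, SE; adjusted p = 5.99e-05), and its second probe gave the same size, -1.26. Against fructose it was 1.53-fold lower (adjusted p = 0.0277), a call lost without fructose mouse 2 or 5 or fasted mouse 2 or 5 (adjusted p up to 0.083), and within slide 1 the difference was 0.24, the other way.

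Bst2, which encodes tetherin, a membrane protein that holds budding virus on the cell, had the widest gap between fasted and fed mice of the effectors given in full. Its log2 signal was 5.09 to 5.67 in fasted mice, with a median of 5.63. It was 6.32 to 6.85 on water, 6.36 to 6.74 on glucose and 6.33 to 6.64 on fructose, so every fasted mouse lay below every fed mouse. The difference was -1.03 ± 0.10 against water (adjusted p = 1.14e-08), -1.05 against glucose, and Bst2 was 2.01-fold lower than on fructose. Within the 3 slides the difference from water was -1.10, -1.17 and -0.81.

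Ifi27l2a, a small interferon-induced protein of the mitochondrial and nuclear membranes, lay at 1.87 to 2.42 in the fasted mice (median 2.30) and 3.00 to 3.62 on water. Mice on glucose lay at 3.21 to 4.14 and mice on fructose at 2.88 to 3.91, above all fasted mice. The fall was 2.00-fold against water (SE 0.18 on the log2 scale; adjusted p = 5.83e-05), 2.79-fold against glucose and 2.33-fold against fructose.

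Isg15, a ubiquitin-like protein that is attached to other proteins during the antiviral response, lay at 1.84 to 3.13 in fasted mice (median 2.35) against 3.18 to 3.61 on water (median 3.51). With glucose it spanned 3.08 to 3.94 and with fructose 2.77 to 3.28. The highest fasted mouse reached into both sugar groups but not into the water group. Isg15 was 1.97-fold lower than on water (-0.98 ± 0.17; adjusted p = 5.26e-05). The size varied with the slide, at -0.47, -1.28 and -1.19 within slides 1, 2 and 3.

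Other effectors fell by smaller amounts against water. Ifi44 differed by -0.89, Ifit2 by -0.74, Xaf1, a proapoptotic factor, by -0.72, the ADP-ribosyltransferase Parp14 by -0.70, Ifi35 by -0.68 and the oligoadenylate synthetase Oas1a, which makes the activator of RNase L, by -0.50. Oasl2 (-0.40), the GTPase gene Mx2 (-0.41) and Oas3 (-0.92) passed narrowly, with adjusted p of 0.0394, 0.0483 and 0.0375, and the calls were lost in 7, 17 and 6 of the 24 fits that left out a single array (adjusted p up to 0.1, 0.139 and 0.114). The arrays without which Oasl2 lost its call were water 3, 4 and 6 and fasted 1, 2, 4 and 5, and those for Oas3 were water 3, 4 and 6 and fasted 1, 2 and 6. Oas3 is dim. It was above background on 1 of 6 fasted, 3 of 6 water, 4 of 6 glucose and 4 of 6 fructose arrays, so the size of its difference rests largely on signals near background. It had log2 signals of -6.74 to -4.53 in fasted mice and -5.33 to -3.65 on water, -4.83 to -3.94 on glucose and -5.23 to -4.05 on fructose. With another background correction its difference from water was -0.12 (adjusted p = 0.184).

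For 6 effectors the test against water was not passed: the RNA-binding proteins Ifit1 (-0.56, adjusted p = 0.0644) and Ifit3 (-0.44, 0.0654), Mx1 (-0.48, 0.114), Oas2 (-0.34, 0.0757), Trim30a (-0.10, 0.427) and Oas1g (-0.04, 0.913). The probes of Trim30a disagreed: the brightest stands for the gene here, while the other 2 were called lower (-0.46 and -0.47; adjusted p = 0.000503 and 0.00877), as was the mean of all 3 (-0.34; adjusted p = 0.00528). Of 16 members with several kept probes, 8 had both called and uncalled probes against water: Ifi44, Irf1, Irf9, Irgm1, Psmb9, Rsad2, Tap1 and Trim30a. Ifit1 spread widely among the fasted mice, from -2.19 to -0.20, around fed levels of -0.78 to -0.15 on water. Oas2, Ifit3 and Mx1 did pass against glucose (-0.68, -0.57 and -0.62), Mx1 not without glucose mouse 2, 4 or 5 or fasted mouse 1, 2, 5 or 6 (adjusted p up to 0.0982). Oas1a and Oas1g are close gene copies, and a probe for either may also bind the other.

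Rsad2 and Usp18 went the other way, and are described because they were the only members that rose, a choice made after their values were seen. Rsad2 encodes viperin, an enzyme that makes a chain-terminating nucleotide and sits on the endoplasmic reticulum and lipid droplets. Its log2 signals in the 6 fasted mice were 0.79, -0.11, 1.17, 1.37, 0.39 and 0.70. On water it lay between -0.16 and 0.41, on glucose between -0.58 and 0.28, and on fructose between -0.81 and 0.42, so 4 of the 6 fasted mice were above every fed mouse. The rise was 1.55-fold against water (0.64 ± 0.23; adjusted p = 0.0289), 1.62-fold against glucose (0.0161) and 1.99-fold against fructose (0.00108). The second probe gave 0.49 against water and was not called on its own (adjusted p = 0.0965). The 2 highest fasted mice were both on slide 1: within slides 1, 2 and 3 the difference from water was 1.38, 0.06 and 0.47, and leaving out fasted mouse 3 or 4, or water mouse 2 or 3, ended the call against water (adjusted p from 0.0528 to 0.0842).

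Usp18 encodes the protease that removes Isg15 from proteins and blocks signalling at the Ifnar2 receptor chain. Its log2 signals were 1.18, 1.90, 1.47, 1.64, 1.88 and 1.28 in the fasted mice, against 0.36 to 1.37 on water, 0.78 to 1.57 on glucose and 0.50 to 1.23 on fructose. The fasted group overlapped each fed group at its lower end. It was 1.62-fold higher than on water (0.70 ± 0.17; adjusted p = 0.00204), 1.41-fold higher than on glucose (0.0236) and 1.62-fold higher than on fructose (0.00206). The differences from water within the slides were 0.69, 1.01 and 0.39. The call against glucose was lost without glucose mouse 1, 3 or 6 or fasted mouse 2 or 5 (adjusted p from 0.0566 to 0.0618).

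**Figure D3:**
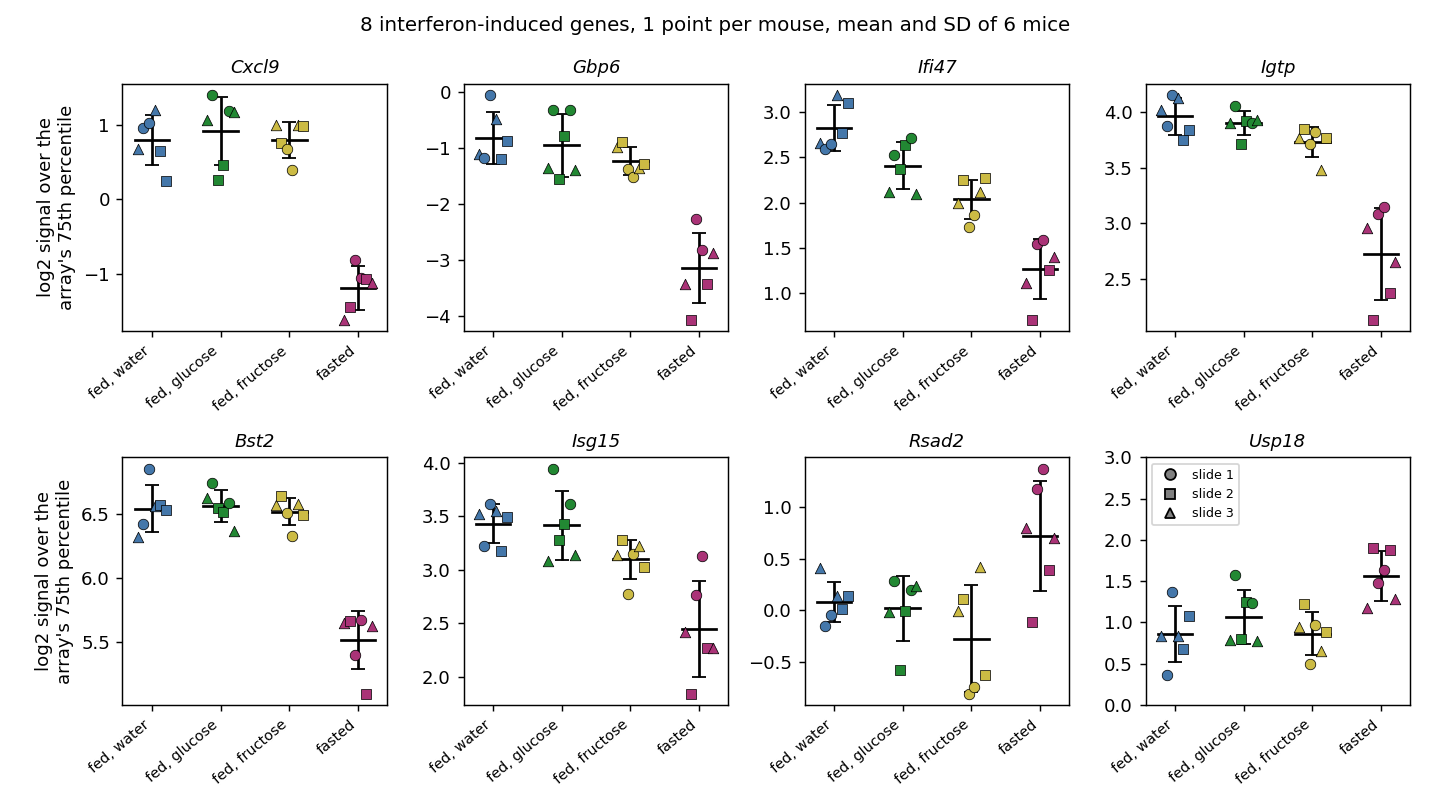
Each point is the log2 signal over the array's 75th percentile of 1 gene in 1 mouse, by group, with the mean and SD of 6 mice and the slide as the symbol; the scales differ between genes and levels are not compared between them. Cxcl9, Gbp6, Ifi47, Igtp and Bst2 lie lower in all 6 fasted mice than in any fed mouse, the highest fasted mouse for Isg15 overlaps the sugar groups, and Rsad2 and Usp18 are higher in most fasted mice.

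The RNA sensors and transcription factors of the type I response fell in part. Ddx58, which encodes the sensor RIG-I, was 1.54-fold lower than on water (-0.62 ± 0.12; adjusted p = 0.000184), with fasted mice at 1.09 to 1.98 below fed mice on water at 2.06 to 2.49. Ifih1, which encodes the sensor MDA5, fell less (-0.32; adjusted p = 0.0291), and that call was lost without water mouse 6 or fasted mouse 2 (adjusted p up to 0.0879). Dhx58, encoding the regulatory sensor LGP2, did not pass (-0.41; adjusted p = 0.0954). Of the factors, Stat2 fell 1.86-fold (-0.89 ± 0.08; adjusted p = 5.04e-09), with every fasted mouse at 2.68 to 3.11 and every fed mouse between 3.62 and 4.06. Irf7, which amplifies interferon production, fell 1.61-fold, from 5.35 to 5.81 on water to 4.69 to 5.22 in fasted mice. Irf9, the DNA-binding partner of Stat2, differed by -0.19 (adjusted p = 0.197) by its brightest probe and by -0.31 by the other, which passed on its own (adjusted p = 0.0283); the mean of both did not pass (-0.25; adjusted p = 0.0741).

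The interferon gamma GTPases held the largest single fall. Gbp6, a guanylate-binding protein, lay between -4.06 and -2.26 in fasted mice (median -3.14) and between -1.20 and -0.05 on water (median -0.98). It lay at -1.55 to -0.31 on glucose and -1.51 to -0.88 on fructose, so fasted and fed mice did not overlap. It was 5.03-fold lower than on water (-2.33 ± 0.27; adjusted p = 2.99e-07), 4.56-fold lower than on glucose and 3.76-fold lower than on fructose. Within slides 1, 2 and 3 the difference from water was -1.92, -2.71 and -2.36. The Gbp genes are a family of close copies, so this probe may also bind a relative, which was not tested.

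Ifi47, an immunity-related GTPase, was the member that also differed among the fed groups. It lay at 2.59 to 3.19 on water (median 2.72), 2.10 to 2.71 on glucose, 1.74 to 2.28 on fructose (median 2.05) and 0.71 to 1.59 in fasted mice (median 1.33). The ranges on water and fructose did not overlap, and fasted mice lay below all others. It was 2.94-fold lower in fasted mice than on water (-1.56 ± 0.15; adjusted p = 1.5e-08) and 1.73-fold lower on fructose than on water (-0.79 ± 0.15; adjusted p = 0.0134). Within slides the fructose difference was -0.82, -0.67 and -0.87.

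Igtp, which encodes Irgm3, a regulator that guards host membranes from the effector GTPases, lay at 2.13 to 3.15 in fasted mice (median 2.80) and 3.75 to 4.15 on water (median 3.95). The sugar groups, at 3.71 to 4.06 on glucose and 3.48 to 3.85 on fructose, also lay above every fasted mouse. It fell 2.35-fold against water (-1.23 ± 0.13; adjusted p = 9.42e-08). Gbp7, which supports oxidative killing, lay at -3.07 to -1.80 in fasted mice and -1.74 to -1.07 on water, a 1.92-fold fall (-0.94 ± 0.17; adjusted p = 6.31e-05). It was -1.73 to -1.30 on glucose and -1.85 to -1.46 on fructose, and only the fructose range met the fasted range.

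The remaining GTPases fell by less. The other regulators Irgm1 and Irgm2 differed by -0.77 and -0.84 from water, the effector Iigp1 by -0.70, and Gbp2 by -0.52, all with adjusted p of 0.00287 or lower. Gbp3 did not pass (-0.36; adjusted p = 0.121), and its call against glucose was lost without glucose mouse 1, 2 or 5 or fasted mouse 1, 2, 5 or 6 (adjusted p up to 0.116). Of the 9 GTPases, 7 had no overlap between fasted mice and mice on water, where 12.0% of all genes had fasted mice wholly below. Against fructose 3 of 9 had none, beside 11.6% of all genes.

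The immunoproteasome subunits fell while their constitutive counterparts did not. Psmb10 lay at 4.55 to 5.18 in fasted mice (median 4.80), 5.65 to 5.89 on water, 5.69 to 5.87 on glucose and 5.60 to 5.84 on fructose, with no overlap. It fell 1.93-fold against water (-0.95 ± 0.08; adjusted p = 3.24e-09). Psmb9 differed by -0.70 ± 0.17 (adjusted p = 0.00171) and Psmb8 by -0.39 ± 0.10 (0.00216), and these 3 subunits replace Psmb7, Psmb6 and Psmb5 in the proteasome of cells exposed to interferon gamma. The replaced subunits went slightly the other way against water: Psmb5 rose by 0.23 ± 0.05 and Psmb7 by 0.21 ± 0.06, and Psmb6 did not pass at 0.13 (adjusted p = 0.0923). Against fructose none of the 3 passed (0.10, 0.11 and 0.10; adjusted p of 0.156, 0.153 and 0.194 for Psmb5, Psmb6 and Psmb7). Tap1, a subunit of the pump that carries peptides into the endoplasmic reticulum, differed by -0.48 from water (adjusted p = 0.00308) and by -0.14 from fructose (0.385).

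**Figure D4:**
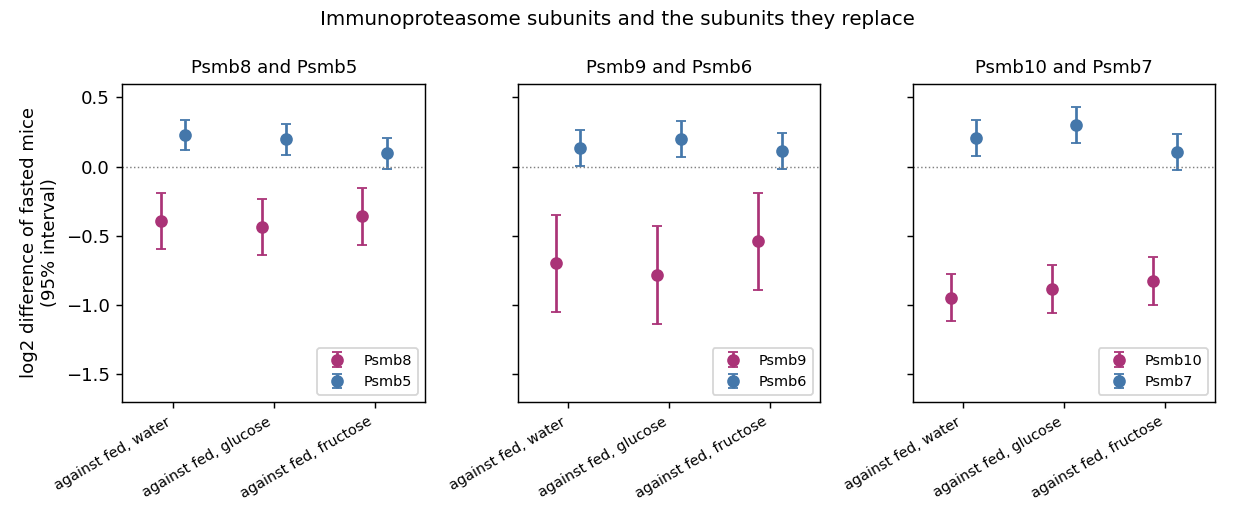
Points give the log2 difference of fasted mice from each fed group, with 95% intervals from the limma fit, for each immunoproteasome subunit and the constitutive subunit it replaces. The immunoproteasome subunits lie between -0.95 and -0.36 in all comparisons, and the constitutive subunits between 0.10 and 0.30.

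The chemokine genes Cxcl9 and Cxcl10, whose products draw activated T and natural killer cells through the receptor Cxcr3, had larger falls than Irf1, though that difference was not tested. Cxcl9 lay at -1.62 to -0.82 in fasted mice (median -1.10) and at 0.25 to 1.20 on water (median 0.82), 0.25 to 1.40 on glucose and 0.39 to 1.00 on fructose. No fasted mouse overlapped a fed mouse. It was 3.96-fold lower than on water (-1.99 ± 0.19; adjusted p = 1.46e-08), 4.33-fold lower than on glucose and 3.98-fold lower than on fructose. Cxcl10 lay at -2.07 to -0.53 in fasted mice against -0.16 to 0.88 on water, a 3.23-fold fall (-1.69 ± 0.22; adjusted p = 1e-06). On glucose it was -0.44 to 0.60 and on fructose -0.54 to -0.02, where the lowest fed mouse met the highest fasted mouse. Irf1, the transcription factor induced early by interferon gamma, differed by -0.40 from water (adjusted p = 0.0391), a call lost without water mouse 2, 5 or 6 or fasted mouse 1, 2 or 5 (adjusted p from 0.0658 to 0.12). Its second probe differed by -0.10 (adjusted p = 0.72), and the mean of both did not pass (-0.25; adjusted p = 0.23). Irf1 did not pass against glucose (-0.29; adjusted p = 0.139) or fructose (-0.33; 0.0893).

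The fasted mice were not alike, and their values differed between slides. Each slide carried 2 arrays of every group, so a comparison can be made within it. The mean over all members, set against the mean of fed mice on water, was -0.35 and -0.41 in the fasted mice of slide 1 (4 and 3), -0.82 and -1.08 in those of slide 2 (5 and 2), and -0.82 and -0.67 in those of slide 3 (1 and 6). Fed mice ranged from -0.39 to 0.32, and the lowest of them, fructose mice 3 and 4, were also on slide 1. Fasted against water, the median member differed by -0.43, -0.99 and -0.71 within slides 1, 2 and 3, and all 34 members called in the whole comparison kept their sign in all 3 slides. Fasted against glucose, the medians were -0.56, -1.02 and -0.63 and all 37 called members kept their sign. The called members were chosen on these same arrays, which partly fixes their agreement. Over all 43 members, called or not, 33 were lower and 2 higher in every slide against water. The numbers were 40 and 2 against glucose and 21 and 2 against fructose. Fasted against fructose, the medians were 0.00, -0.87 and -0.65. Within slide 1 only 21 of 43 members were lower than with fructose, and 22 of the 29 called members kept their sign in every slide; the 7 that turned did so in slide 1, 5 of them by less than 0.1. With 2 mice against 2 in slide 1, a mouse difference and a slide difference cannot be told apart.

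**Figure D5:**
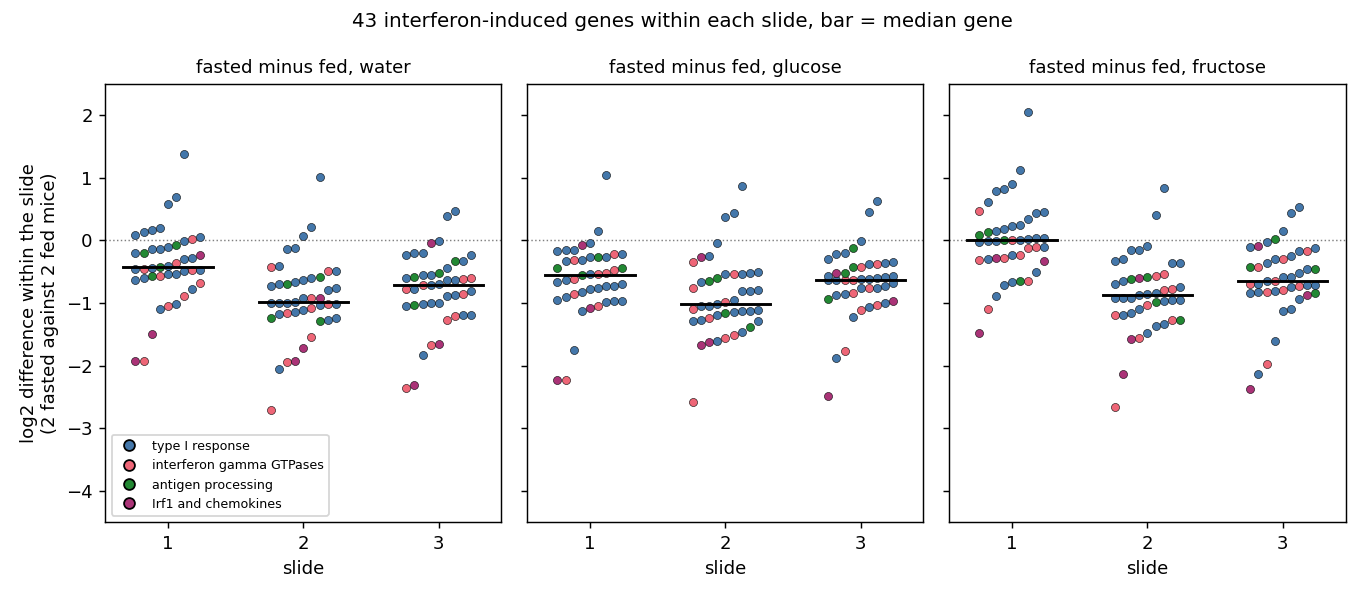
Each point is the log2 difference of 1 of the 43 members between the 2 fasted and the 2 fed mice on a slide, for each fed group, coloured by class; the bar is the median gene. The medians against water are -0.43, -0.99 and -0.71, and the median against fructose in slide 1 is 0.00.

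Leaving out single arrays gave 29 to 36 called members against water, 34 to 39 against glucose and 27 to 31 against fructose. Against water 28 of the 34 calls held with any 1 array left out, 27 of them lower and 1 higher. The corresponding numbers were 34 of 37 against glucose and 27 of 29 against fructose. The members varied more among mice of a group than the typical gene did, with a median SD within groups of 0.27 on the log2 scale, against 0.20 over all genes. Chemokines and Irf1 varied most (0.34), then type I genes (0.30), GTPases (0.24) and antigen processing genes (0.20).

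Among the fed groups the members differed little. Fed mice on glucose and on water differed in 0 of 43 members (limma, adjusted p under 0.05), where 0.830% of all genes were called, 98 higher and 101 lower. At an unadjusted p under 0.05, 2 members were higher and 2 lower, beside 11.4% of all genes either way. The median member lay 0.04 higher with glucose, with 28 above 0 and 15 below. The type I genes lay mostly above (23 of 27) and the GTPases mostly below (7 of 9). Within slides 1, 2 and 3 the member median was 0.25, 0.02 and -0.06, and 27, 16 and 13 of the 27 type I genes lay above 0. Glucose mouse 2 had the highest value of its group in 34 of 43 members.

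On fructose, Ifi47 alone passed against water, 1 of 43 members, where 0.880% of all genes were called, 120 higher and 91 lower. An unadjusted p under 0.05 was reached by 9 members, all lower, beside 8.25% of all genes lower at that p. The difference was negative in 38 of 43 members, with a median of -0.16, and in 12697 of all 23966 genes. After Ifi47 the largest differences were those of Cxcl10 (-0.77 ± 0.22; adjusted p = 0.0881, and 0.0362 with slide as a block), Oasl1 (-0.65 ± 0.22; 0.146) and Mx2 (-0.47 ± 0.16; 0.155). Oasl1 and Parp14 (-0.30) did not overlap between fructose and water, nor did Ifi47, 3 of 43 members where 0.722% of all genes had fructose wholly below. The median was -0.34 within slide 1 and -0.05 and -0.09 within slides 2 and 3. With each array scaled to its median, the split of calls over all genes was 56 higher and 19 lower for fructose against water and 54 and 36 for glucose against water.

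Fructose and glucose differed in 0 of 43 members, as in 0% of all genes (limma); 12 members had an unadjusted p under 0.05, all lower with fructose, beside 3.87% of all genes lower at that p. The difference was negative in 42 of 43 members and in 12067 of all 23966 genes. The member median was -0.25, and within slides 1, 2 and 3 the medians were -0.67, -0.08 and -0.07. Parp14 differed by -0.33 (95% interval -0.52 to -0.15; adjusted p = 0.427) and Mx1 by -0.59 (-1.08 to -0.10; 0.572). By group means, the fasted group was the lowest of the 4 in 38 of 43 members, and the fructose group in 4. The glucose group was the highest in 27 and the water group in 14.

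Of the ligands, receptors and signalling genes, most did not fall with fasting. Among 9 interferon genes, Ifnb1, Ifna4 and Ifne were not well above background on any array and 1 had no probe of its name. Of the 5 measured, only interferon gamma itself, Ifng, passed against water, as lower. Ifng was well above background on 5 of 6 water, 1 of 6 glucose, 2 of 6 fructose and 0 of 6 fasted arrays. It was at least 1.63-fold lower in fasted mice than on water and at least 1.08-fold lower than on fructose. No bound could be set against glucose. The measured log2 means were -6.73 in fasted mice and -4.78 on water. The limma adjusted p against water, 7.15e-06, came from these measured signals and not from the bound. The bound sets each dim fasted array at no less than the dimmest probe that passed on it.

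Of 13 receptor and signalling genes 4 fell and 4 rose against water, 30.8% lower, where 20.9% of all genes fell and 21.7% rose. The lambda receptor gene Ifnlr1 was dim, above background on 2 of 6 water arrays and 6 of 6 fasted arrays, and passed as higher (adjusted p = 0.0108); no fold is given, since most water arrays were not above background. The receptor chain Ifnar2 rose by 0.58 ± 0.06 (adjusted p = 4.41e-08), and Socs1, an induced inhibitor of the Jak kinases, fell by 0.91 ± 0.23 (adjusted p = 0.00215). Ifnar2 lay at 4.70 to 4.88 in fasted mice and 4.10 to 4.46 over all fed mice. Chosen after their values were seen, the kinase gene Tyk2 fell by 0.38 (adjusted p = 0.000145) and the receptor chain Ifnar1 by 0.26 (adjusted p = 0.000188). Jak1, Jak2 and Ifngr1 did not pass (0.01, -0.01 and 0.06). Of 19 genes of microbe sensing and interferon production 6 fell and 5 rose, 31.6% lower, beside 20.9% of all genes. The kinase gene Ikbke fell by 1.45 ± 0.17 (adjusted p = 3.62e-07), Irf5 fell 2.15-fold and the nucleotide hydrolase Samhd1 fell by 0.58.

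Other interferon-stimulated genes also fell more often than they rose. This list and the next were chosen with earlier results of these data known, so their counts are not independent support. From a list of 30 with 29 measured, 16 fell and 2 rose against water, with a median of -0.36. This is 55.2% lower, beside 20.9% of all genes. Ifitm3, which blocks virus entry, fell 2.13-fold, from 7.21 to 7.59 on water to 5.98 to 6.42 in fasted mice (adjusted p = 2.15e-08). Trim25, the ubiquitin ligase of RIG-I signalling and of Isg15 conjugation, rose 2.57-fold (1.36 ± 0.11; adjusted p = 1.68e-09), with fasted mice at 8.75 to 9.29 and fed mice at 7.02 to 7.96. Phf11d rose by 0.92. The Isg15-activating enzyme Uba7 (-0.80) and its conjugating enzyme Ube2l6 (-0.58), named after their values were seen, fell as Isg15 did.

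From 23 other interferon gamma and antigen presentation genes, 22 measured, 13 fell and 2 rose against water, with a median of -0.49. This is 59.1% lower, beside 20.9% of all genes. The GTPases Gbp11 (-1.98 ± 0.47), Gbp9 (-1.56 ± 0.21) and Gbp8 (-1.45 ± 0.33) had the largest falls. Gbp11 and Gbp8 spread widely on water, from -0.10 to 2.61 and from -0.49 to 1.43. Gbp9 was above background on 4 of 6 fasted arrays, so the size of its fall rests partly on signals near background. The next genes were chosen after their values were seen. Ciita, the master regulator of MHC class II, fell 2.10-fold and the class II genes H2-Ab1, H2-Eb1 and H2-Aa by 0.67, 0.68 and 0.48. The MHC class I chains and their regulator moved otherwise: H2-K1 (0.12) and B2m (-0.04) did not pass, H2-D1 rose by 0.26, and Nlrc5, the regulator of class I genes, rose by 0.60 ± 0.12 (adjusted p = 0.000184). The antigen processing genes Tap2, Tapbp, Psme1 and Erap1 of the same list had lower medians in fasted mice than on water. For each of them the fasted and water ranges overlapped, and the Erap1 medians were nearly equal. These medians are given without a call. Tap2 lay at 2.78 against 3.10, Tapbp at 4.83 against 4.98, Psme1 at 5.74 against 5.88 and Erap1 at -0.11 against -0.09. The chaperones of peptide loading, Pdia3 (-1.14), Calr (-0.93) and Canx (-0.88), fell, and they also serve protein folding in general.

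Markers of the cells that could carry these transcripts were read beside the members. Their counts stand beside 20.9% of all genes that fell and 21.7% that rose against water, and 23.4% that rose against fructose. The 5 hepatocyte genes were above background on all arrays. Against water the enzyme gene Tat rose by 1.28 and Ttr fell by 0.23, while Alb (-0.03), Apoa1 (0.14) and Serpina1a (0.00) did not pass; against fructose 4 of 5 rose. Their summed signal, in multiples of the array's 75th percentile, was 4530 to 5000 in fasted mice, 4210 to 5060 on water, 4150 to 4470 on glucose and 3860 to 4240 on fructose. Of 10 Kupffer cell markers 2 rose against water, Marco by 1.04 and Vsig4 by 0.56, and 0 fell. Their sum was 107 to 170 in fasted mice and 96.4 to 135 on water, 90 to 151 on glucose and 81.3 to 117 on fructose. Of 9 T and natural killer cell markers 7 were measured, Cd8a and Ncr1 being too dim. Of these Nkg7 fell by 0.40 and Klrk1 by 0.31 against water, and 0 rose. Their sum was 3.28 to 4.40 in fasted mice, 3.77 to 4.69 on water, 3.83 to 4.33 on glucose and 3.36 to 4.21 on fructose. Of 4 neutrophil markers Retnlg rose and Ly6g fell, and the sum was 0.892 to 22.5 in fasted mice against 1.45 to 2.19 on water, 1.36 to 2.91 on glucose and 1.43 to 1.85 on fructose. Retnlg was dim, above background on 4 of 6 fasted arrays and 2 of 6 in each fed group. Its rise is thus partly measured against signals near background. Of 4 B cell markers 1 fell, Ms4a1, with sums of 0.638 to 1.14 in fasted mice, 0.61 to 1.09 on water, 0.588 to 1.11 on glucose and 0.575 to 0.948 on fructose. Of 3 measured dendritic cell markers 1 rose, Clec9a, with Xcr1 above background on 0 arrays, and the sum was 241 to 277 in fasted mice, 218 to 264 on water, 173 to 245 on glucose and 185 to 228 on fructose. Of 6 endothelial markers Lyve1 (1.32), Pecam1 (0.36) and Stab2 (0.19) rose and Kdr fell by 0.46, with sums of 43.4 to 60.6 in fasted mice, 46.4 to 57.9 on water, 44.9 to 57.8 on glucose and 50.9 to 62.6 on fructose. Of 5 stellate cell markers Dcn rose by 0.38 and Lrat (-1.25) and Col1a1 (-1.01) fell, with sums of 95.5 to 112 in fasted mice, 70.8 to 110 on water, 78.6 to 99.9 on glucose and 81.5 to 99.5 on fructose. Of 5 cholangiocyte markers Spp1 (-0.87), Krt19 (-0.79) and Krt7 (-0.56) fell against water and 0 rose. The cholangiocyte sum was 3.53 to 9.48 in fasted mice (median 5.22), 7 to 11.3 on water (median 9.26), 7.65 to 14.5 on glucose and 7.42 to 13.9 on fructose. Several sums follow 1 gene. The dendritic sum is nearly all Siglech, with a median log2 signal of 7.89 on water, against -1.88 for Clec9a and -3.47 for Flt3. Dcn (5.98) leads the stellate sum, Spp1 (3.02) the cholangiocyte sum and Cd3e (1.27) the T and natural killer cell sum. Such a sum is not a measure of a cell type's share. The part of these cells in the result was not tested.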

How the data were processed

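Liver RNA of 24 mice was measured on 1-colour Agilent 8x60K arrays. Per the file headers, the deposited spot intensity is background-subtracted within the array by Agilent Feature Extraction 10.10.1.1 and not normalized between arrays. The authors also deposited a log2 table of 35967 probes, with column medians of 7.38 to 7.39, whose normalization is not given in the sources used here; the submitters' processing notes name limma. It served as an alternative.

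Control spots and outlier-flagged spots were left out, spots of a probe were averaged on the log2 scale, and the array's 75th percentile was subtracted. Probes well above background on at least 6 of 24 arrays were kept (36229 of 56605), and the brightest kept probe stood for a gene; 16 members had several, all with 1 sign in fasted minus water. Between 32519 and 36272 probes were above background per array, and the number of arrays limits the precision. Names came from RefSeq (GRCm38.p6); promoter windows are of that build.

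Group means over all 24 arrays were fitted with limma 3.58.1 in R 4.3.3, and p-values were adjusted over all 23966 genes within each of 6 comparisons. Errors of differences are standard errors. Mice are single animals, 1 array each. Full values were given for the 12 members with the largest differences from water and for any called between fed groups, and up to 3 genes were named per pathway list, called and largest first. Members and lists were chosen with earlier results of these data known, and 1 gene of the signalling list is not reported here. On simulated data in fasted minus fed on water, with 23966 genes, 51% of changes of 0.5 and 88% of changes of 1 on the log2 scale were recovered, and 6 unchanged genes were called. Only 100 genes were changed at each size, with independent noise. In the real comparison 42.6% of genes were called, so these recoveries are not its sensitivity. Alternatives were background correction, scaling, filter, probe rule, naming, slide, replicate number, groups fitted and single arrays left out.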

Additional observations from a re-analysis of the deposited data

Results flagged for a closer look

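In 172 groups of 6 mice (43 members in 4 groups), 6 had a single mouse far from the others. Chance gives about 1 in 20, so this is no more than chance alone gives. The cases are listed as a description only. Fasted mouse 1 had the lowest Oas1a, 1.49 in log2 signal with the next mouse at 1.95. Glucose mouse 3 was lowest for Rsad2, at -0.58 with the next at -0.02, and for Trim30a, at -1.15 with the next at -0.79. Fructose mouse 5 was lowest for the neighbouring genes Igtp, at 3.48 with the next at 3.71, and Irgm2, at 2.87 with the next at 3.22. Fructose mouse 2 had the highest Psmb8, 3.41, with the next at 3.06.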

How the results depend on the processing

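Of the counts of called members and the class medians, 119 of 140 values under other settings with all mice or within slides stayed close to those reported. Closeness was set by a fixed ratio for counts and by the SD of the water mice for class medians. Counts between fed groups that stayed at 0 are among the 119. For fructose against water the count was 2 with normexp background correction, with the deposited table and with slide as a block, where Cxcl10 joined Ifi47 (adjusted p from 0.0353 to 0.0486), and 0 within slides 1, 2 and 3. With normexp the median difference of fasted mice from water was -0.38 for the type I response and -1.33 for Irf1 and the chemokines, and with the deposited table -1.53 for the latter. Within slide 1 the class medians were -0.29 (type I), -0.57 (GTPases), -0.32 (antigen processing) and -1.49 (Irf1 and chemokines), and within slide 2 -0.79, -1.08 and -0.96 for the first 3. Called members within slide 1 were 14 against water, 21 against glucose and 11 against fructose (5 higher, 6 lower), and within slide 3 they were 23 against glucose and 19 against fructose; 2 mice met 2 there. Within slide 1, 7 members called against fructose had the other sign, Oas3 (0.44), Oasl1 (0.24), and Psmb9, Ifi44, Xaf1, Gbp2 and Psmb8 at 0.08 or less. The cause was not tested. With single arrays left out the counts ran from 29 to 36, 34 to 39 and 27 to 31 for fasted against water, glucose and fructose, from 1 to 3 for fructose against water (3 without fasted mouse 2, with Cxcl10 and Irgm1) and stayed at 0 otherwise. The class medians ran from -0.73 to -0.52, -0.90 to -0.77, -0.65 to -0.51 and -1.83 to -1.52. With the replicate number as a block, 31, 35 and 29 members were called with fasting and 1 with fructose against water. Whether the numbers mark pairs was not settled. Deviations correlated at 0.03 on average between mice of the same number (-0.17 to 0.22, 9 of 36 pairs over 0.1) and at -0.007 between other numbers. They correlated at 0.05 within a slide and at -0.03 between slides. Of 24 mice 8 matched their own number best, and no chance level was computed for this. Signal over background limits Oas3 and Ifng, and in part Gbp9. Oas3 drops out when all 24 arrays must be above background.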
